A study of Mus musculus with 14 samples.

Results

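The messenger RNA of 10 genes was followed: the Polycomb core genes Ezh1, Ezh2, Eed and Suz12, the DNA methyltransferase genes Dnmt1, Dnmt3a and Dnmt3b, and the TET genes Tet1, Tet2 and Tet3. They were chosen by symbol for what their proteins do, from the 22155 genes of the count table, and all 10 were found. The cells were mouse MLL-AF9-Cas9+ leukemia cells, a model of acute myeloid leukemia driven by the MLL-AF9 fusion protein, in which Cas9 cuts wherever a guide RNA directs it. In 3 libraries the cells carried sgCtrl, guide RNA against nonessential sequence. In the other 3 they carried sgSgf29, guide RNA against Sgf29, a histone-reading subunit of the SAGA and ATAC acetyltransferase complexes. Both kinds of guide were delivered by lentivirus in the ipUSEPR vector, and all cultures were held in puromycin at 2 µg/ml for 3 days. Fusion protein, Cas9, virus and drug were thus common to both groups. The labels number the libraries from 1 to 3 without saying whether a number stands for a guide sequence, a culture or a repeat of one culture, and the p-values therefore measure the spread between libraries, which may be technical. The populations were bulk and selected for the vector, not for a clone in which both Sgf29 copies were cut. The other 8 samples among the 14 of the series, of chromatin, were not analysed here.

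Each of these proteins belongs to a silencing or methylation system. In Polycomb repressive complex 2 (PRC2), Ezh2 or its relative Ezh1 places methyl groups on lysine 27 of histone H3, Suz12 holds the complex together, and Eed reads the finished mark and stimulates the enzyme. Ezh2 is the form of dividing cells and the stronger methyltransferase, while Ezh1 is the form retained in resting and mature cells. Dnmt1 copies cytosine methylation onto the new strand after replication, and Dnmt3a and Dnmt3b place it anew. Tet1, Tet2 and Tet3 oxidise methylated cytosine, the first step of its removal. EZH2, DNMT3A and TET2 are recurrently mutated in human myeloid malignancy, and Eed is needed by MLL-AF9 leukemia cells in mice.

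In the sgSgf29 libraries the paired enzymes of each system changed in opposite directions. Ezh1, Eed, Dnmt3a and Tet3 were higher, Ezh2, Suz12, Dnmt3b and Tet2 were lower, Dnmt1 was not called, and Tet1 was nearly without reads. Of the 9 genes with enough counts to be tested, 4 were called lower and 4 higher by edgeR's quasi-likelihood test at a Benjamini-Hochberg adjusted p under 0.05, adjusted over all 11169 genes tested. Over those genes 34.4% were called lower and 35.4% higher, 69.8% in all, so that 8 calls among 9 genes are not by themselves a result about these genes. Without overlap between the groups, 3 of the genes were lower and 4 higher, where 35.1% and 37% of all genes tested were so and 72.1% did not overlap in either direction. The median log2 fold change was −0.09 over the 9 genes and 0.01 over all genes tested.

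Libraries held between 16003990 and 21786618 counts in genes, which makes 3 counts, the most that a count of 0 allows, equal to 0.135 to 0.201 CPM, the count scaled to a common library size. Sgf29 itself stood at 36.2, 40.4 and 40.4 CPM in the sgCtrl libraries and at 12.6, 13.4 and 17.4 CPM in the sgSgf29 libraries. All 8 genes listed for the identity of these leukemia cells were expressed, and 4 of them were lower: Mpo (191.5 to 53.7 CPM), Hoxa9 (164.8 to 63.8 CPM), Myb (324.9 to 201.8 CPM) and Kit (32.3 to 19.4 CPM). Of the others Ptprc, Spi1 and Meis1 were higher and Cebpa was not called. The globins and Pf4, markers of red cells and platelets, were at 0 in all 6 libraries, as was the macrophage gene Mrc1. Other genes of the red cell and platelet lists had counts. Gata1 (0.083 to 0.950 CPM) and Vwf (0.164 to 1.54 CPM) were called higher and Itga2b (2.34 to 1.05 CPM) lower, while Klf1 and Gp9 were not called. Granulocyte markers moved with the guide: 8 of 10 were higher and 2 lower, Ltf (log2 fold change −0.86) and Camp (−0.16). Beside these and the following counts, 35.4% of all genes tested were called higher and 34.4% lower. The summed level of the 10 granulocyte markers was 8482 to 9207 CPM in sgCtrl and 24674 to 26128 CPM in sgSgf29. Within that sum S100a9 alone went from a mean of 3447 to 13074 CPM. Of 7 monocyte and macrophage markers tested 5 were higher, among them Ccr2 (7.62 to 69.1 CPM), Adgre1 (1.17 to 24.5 CPM), Cd68 (12.3 to 56.6 CPM) and Cd14 (15.4 to 57.5 CPM), and Ly6c2 was lower. Genes of DNA replication and the cell cycle moved the other way: 22 of 25 were lower and 1 higher (13 and 2 with library size alone), with summed levels of 3920 to 4163 and 2833 to 3261 CPM. Ribosomal protein genes took 18.9% to 19.6% of the counts in sgCtrl and 12.1% to 13.7% in sgSgf29. In bulk samples such as these, fewer cells of a type and less RNA per cell cannot be told apart, and the part of granulocyte, monocyte, cell cycle and ribosomal genes in the changes below was not tested.

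The promoters of Ezh2, Suz12, Dnmt1 and Ezh1 are shown because they differ in a feature that the choice of the genes did not use, the E2F word common before cell cycle genes. They are RefSeq sequences of GRCm38.p6, read on the strand of the gene, from 250 bases before the annotated start to 50 after it. Capitals mark TTTCCCGC or TTTGGCGC. The Ezh2 promoter lies at chr6:47594981-47595280 on the minus strand, that of Suz12 at chr11:79992856-79993155 on the plus strand, the third of the 3 listed for Dnmt1 at chr9:20952574-20952873 on the minus strand, and that of Ezh1, which has neither word, at chr11:101226414-101226713 on the minus strand.
Ezh2: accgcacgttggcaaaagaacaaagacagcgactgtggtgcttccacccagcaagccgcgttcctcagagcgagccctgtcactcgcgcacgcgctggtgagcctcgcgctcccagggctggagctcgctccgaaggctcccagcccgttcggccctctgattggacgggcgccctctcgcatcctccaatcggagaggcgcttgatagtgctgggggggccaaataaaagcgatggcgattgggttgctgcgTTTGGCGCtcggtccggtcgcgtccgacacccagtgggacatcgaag
Suz12: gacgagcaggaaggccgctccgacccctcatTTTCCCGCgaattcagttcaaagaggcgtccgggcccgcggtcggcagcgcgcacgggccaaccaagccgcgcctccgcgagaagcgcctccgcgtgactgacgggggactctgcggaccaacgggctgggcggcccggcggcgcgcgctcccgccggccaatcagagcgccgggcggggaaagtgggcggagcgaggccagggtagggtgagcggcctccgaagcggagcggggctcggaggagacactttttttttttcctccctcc
Dnmt1: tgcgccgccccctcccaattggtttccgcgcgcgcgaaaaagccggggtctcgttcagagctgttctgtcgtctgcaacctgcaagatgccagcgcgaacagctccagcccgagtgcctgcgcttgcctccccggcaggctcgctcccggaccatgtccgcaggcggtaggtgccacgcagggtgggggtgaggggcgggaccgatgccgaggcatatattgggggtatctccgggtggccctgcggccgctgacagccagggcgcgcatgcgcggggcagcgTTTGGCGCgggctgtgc
Ezh1: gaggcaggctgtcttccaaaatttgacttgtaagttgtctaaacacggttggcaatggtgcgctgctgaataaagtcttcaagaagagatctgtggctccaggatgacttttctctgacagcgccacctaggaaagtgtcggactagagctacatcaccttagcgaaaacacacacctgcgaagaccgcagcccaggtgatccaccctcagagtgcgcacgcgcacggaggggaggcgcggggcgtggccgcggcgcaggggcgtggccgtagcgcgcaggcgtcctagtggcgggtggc

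Searched on both strands, TTTCCCGC was present in 1.07% and TTTGGCGC in 0.514% of the 32851 promoters of this length in the table, and either word in 1.56%. Among the 10 genes, Ezh2 has TTTGGCGC from position 4 after its start, Suz12 has TTTCCCGC from position −219 and Dnmt1 has TTTGGCGC from position 34. Of the 20 cell cycle genes with a listed promoter, 8 hold a word, as do Hells and Cdca7 among 8 partners of the DNA methyltransferases, Phf19 among 8 accessory subunits of PRC2, 1 of 19 developmental regulators and 2 of 13 germline genes, but none of the 18 PRC1 subunits. Over all 27025 genes with a promoter the share is 1.8%. Both E2F words contain a CG pair, and this background is not matched for CG content or for the number of promoters per gene. The E-box CACGTG, found in 7.15% of promoters, occurred in 1 of the 3 promoters of Dnmt3a, and the NF-Y word CCAAT, found in 37.4%, in those of Ezh2, Eed, Suz12, Dnmt1 and Tet3. CpG was frequent: the promoters of the 10 genes hold 12 to 57 CG pairs, against a median of 7 over all promoters, except the first promoter of Dnmt1 with 2. A word in a promoter is a description of its letters and does not show binding.

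The catalytic subunits of PRC2 changed in opposite directions. Ezh1 (chr11:101191115-101226463, minus strand) was at 23.1, 21.5 and 22.8 CPM in the sgCtrl libraries and at 43.1, 43.6 and 40.8 CPM in the sgSgf29 libraries. Every sgSgf29 library lay far above every sgCtrl library, and the means of 22.5 ± 0.849 and 42.5 ± 1.47 CPM (SD, n = 3) differed 1.89-fold, with a log2 fold change of 0.92 (SE 0.08, edgeR adjusted p = 2.5e-09). It was the largest change among the 9 genes tested. Ezh2 (chr6:47530274-47595270, minus strand) was at 97.1, 97.0 and 106.3 CPM in sgCtrl and at 68.6, 72.8 and 75.3 CPM in sgSgf29. Its groups did not overlap either, and the means were 100.1 ± 5.32 and 72.2 ± 3.43 CPM (log2 fold change −0.47, SE 0.07, edgeR adjusted p = 2.5e-06). Per kb of exon, Ezh2 was the more abundant of the pair in every library.

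Eed and Suz12, the subunits that both enzymes share, also changed in opposite directions. Eed (chr7:89954654-89980976, minus strand), which binds trimethylated lysine 27, was at 34.6, 35.5 and 38.6 CPM in sgCtrl and at 44.9, 49.9 and 44.5 CPM in sgSgf29. All sgSgf29 libraries were higher, and the means of 36.2 ± 2.07 and 46.4 ± 3.02 CPM gave a log2 fold change of 0.36 (SE 0.08, edgeR adjusted p = 0.00037). Suz12 (chr11:79993106-80034123, plus strand), the scaffold, had the most counts of the PRC2 core genes, at 148.9, 144.5 and 151.6 CPM in sgCtrl and at 117.6, 119.98 and 126.98 CPM in sgSgf29. All sgSgf29 libraries were lower, with a log2 fold change of −0.29 (SE 0.06, edgeR adjusted p = 0.00036), although this call depended on the scaling: with library size alone the value was −0.055 (edgeR adjusted p = 0.44). That scaling raised the median of all genes tested to 0.24, and relative to the median Suz12 stood at −0.30 under each of the 5 scalings tried. A scaling shifts every gene by a like amount, so this constancy is by construction and adds no support to the call.

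**Figure D1:**
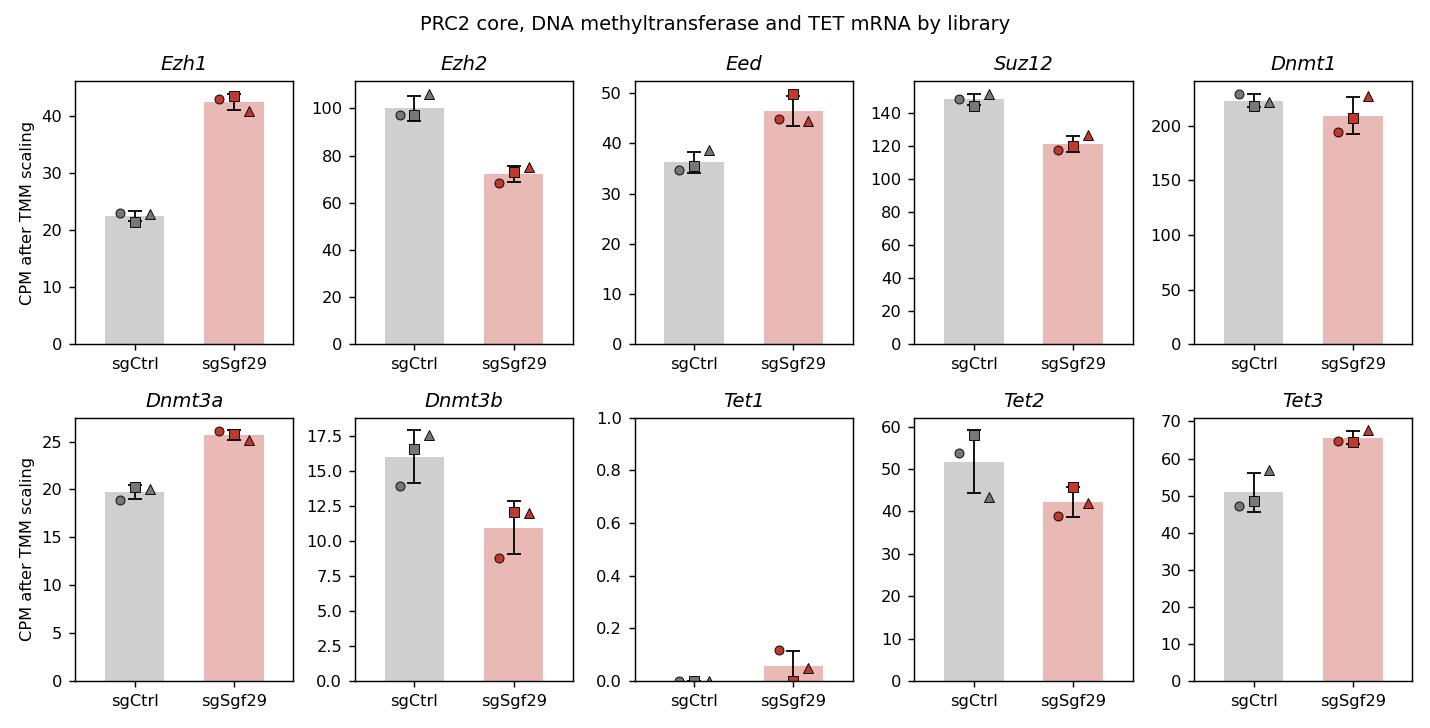
CPM of the 10 genes (y axis, 1 panel each) by guide (x axis). Circles, squares and triangles are libraries 1, 2 and 3, and bars give the mean ± SD of 3 libraries. Ezh1, Eed, Dnmt3a and Tet3 are higher and Ezh2, Suz12 and Dnmt3b lower in every sgSgf29 library, Dnmt1 and Tet2 overlap, and Tet1 has 3 counts in all.

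Ratios within a library do not depend on how libraries are scaled. The ratio of Ezh2 to Ezh1 counts was 4.21, 4.51 and 4.65 in sgCtrl and 1.59, 1.67 and 1.84 in sgSgf29, a difference of −1.39 on the log2 scale. The ratio of Eed to Suz12 counts was 0.233, 0.246 and 0.254 in sgCtrl and 0.382, 0.416 and 0.3501 in sgSgf29, a log2 difference of 0.64. In both the groups were far apart. Ezh2 fell more than Suz12 did: their ratio was 0.652, 0.671 and 0.701 in sgCtrl and 0.583, 0.607 and 0.593 in sgSgf29, a log2 difference of −0.18. For each ratio the exact permutation test over the 6 libraries, two-sided, gave p = 0.1, which is the smallest that 3 against 3 libraries allow, and 0.1 after Benjamini-Hochberg adjustment over the 7 ratios computed. Per kb of exon, Ezh1 made up 16.8% ± 0.723 of the summed Ezh1 and Ezh2 level in sgCtrl and 34.6% ± 1.69 in sgSgf29 (SD, n = 3).

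**Figure D2:**
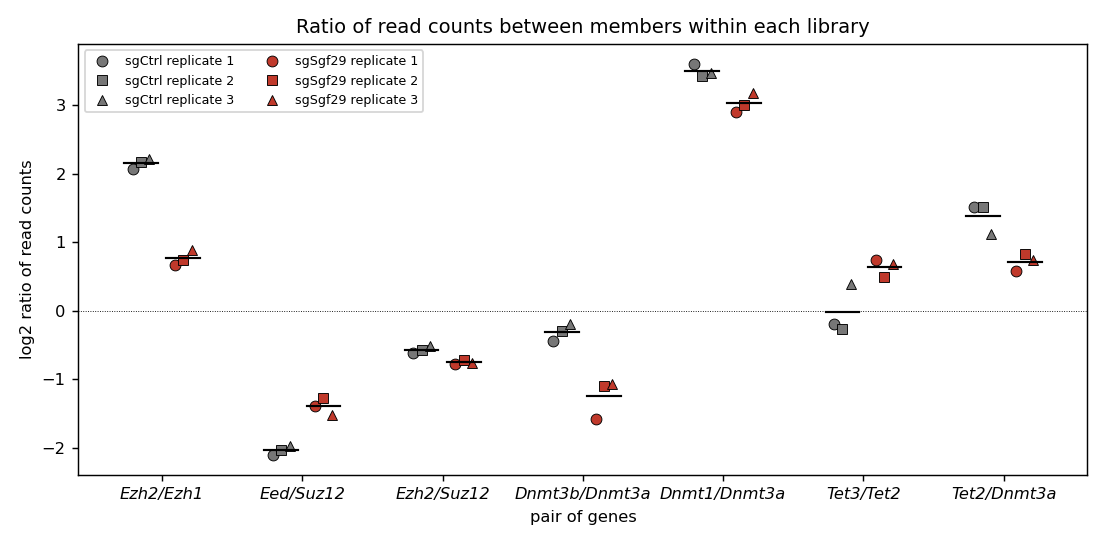
Log2 ratio of the counts of 2 genes within a library (y axis) for the 7 ratios computed (x axis). Each point is a library and each line a group mean. In all 7 the sgCtrl and sgSgf29 libraries do not overlap, and the Ezh2/Ezh1 pair shows the widest gap, −1.39. Of single genes tested 72.1% did not overlap. Most pairs join a gene called higher with one called lower, so their separation largely follows from those calls.

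Genes listed as accessory subunits, many of which decide where PRC2 binds or which of its forms is built, were lower in 6 of 9 cases. A further 1 was higher and 2 were not called, against 34.4% lower and 35.4% higher over all genes tested, with a median log2 fold change of −0.24. The falls were led by Epop, an elongin-binding subunit, from 15.3 to 4.47 CPM (log2 fold change −1.77, SE 0.13), and by Mtf2, a Polycomb-like protein that binds unmethylated CpG islands, from 74.9 to 39.5 CPM (log2 fold change −0.92, SE 0.08). The histone chaperone subunits Rbbp7 and Rbbp4, also counted in this list, fell by 0.72 and 0.24 on the log2 scale. Jarid2, which with Aebp2 marks the second form of the complex, fell by 0.25, and Aebp2 stood at 0.05 without a call. Phf19, another Polycomb-like protein, fell by 0.24. Phf1, the remaining Polycomb-like protein, was called higher, at 17.4 and 32.6 CPM, but 43.8% of its exon bases overlap genes on the other strand, and 18% of those of Rbbp4 do. The strand setting of the counting is not given in the sources used here, so reads of such pairs cannot be told apart. With library size alone, which called 21.4% of all genes lower and 49.9% higher, 3 accessory subunits were called lower and 2 higher.

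PRC1, the complex that ubiquitinates histone H2A and binds the PRC2 mark, also had genes that moved in both directions. Of 23 subunits tested, 13 were called lower and 5 higher, against 34.4% and 35.4% of all genes tested, with a median log2 fold change of −0.21, and Auts2 had no counts. Among the lower were Pcgf6 (−1.14) and L3mbtl2 (−0.56; 17.2% of its exon bases overlap a gene on the other strand), which act together in a variant form, Pcgf2 (−0.57) and the chromobox gene Cbx6 (−0.35). Among the higher were Phc1 (2.03, from 2.25 to 9.27 CPM), Rybp (1.32, from 4.67 to 11.6 CPM), Pcgf3 (0.65) and the chromobox gene Cbx8 (0.58), all log2 fold changes. Library size alone, which moves all genes by a like amount, gave 4 lower and 10 higher. The H3K27 demethylase gene Kdm6b was called higher (log2 fold change 0.45, SE 0.06), and Kdm6a, the other such gene, was not called (0.15, SE 0.09). In PR-DUB, the deubiquitinase of H2A, 3 of 6 genes tested were lower and 2 higher, again against 34.4% and 35.4% of all genes tested. With library size alone none was called lower. The number of higher calls fell to 1 without sgCtrl library 1 or 2 without sgSgf29 library 2 or 3, or by DESeq2.

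The de novo DNA methyltransferases changed in opposite directions. Dnmt3a (chr12:3801559-3914443, plus strand) was at 18.9, 20.3 and 20.1 CPM in sgCtrl and at 26.1, 25.8 and 25.2 CPM in sgSgf29. The groups were tight and did not overlap, with a log2 fold change of 0.38 (SE 0.09, edgeR adjusted p = 0.00077). Dnmt3b (chr2:153649411-153687730, plus strand) was at 13.9, 16.5 and 17.6 CPM in sgCtrl and at 8.79, 12.0 and 12.0 CPM in sgSgf29. All sgSgf29 libraries were lower, with a log2 fold change of −0.54 (SE 0.13, edgeR adjusted p = 0.001), and with library size alone the value was −0.31 (edgeR adjusted p = 0.051). The ratio of Dnmt3b to Dnmt3a counts, free of the scaling, was 0.737, 0.815 and 0.876 in sgCtrl and 0.336, 0.467 and 0.478 in sgSgf29, a log2 difference of −0.94 with an exact permutation p of 0.1, the smallest possible. Per kb of exon, Dnmt3b made up 72.4% ± 1.73 of the pair in sgCtrl and 57.8% ± 4.81 in sgSgf29, or 64.4% and 48.6% with the length of the longest coding transcript.

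Dnmt1 (chr9:20907206-20959888, minus strand), the maintenance enzyme and the gene with the most counts of the 10, was at 229.3, 217.5 and 221.3 CPM in sgCtrl and at 193.9, 206.8 and 226.8 CPM in sgSgf29. The groups overlapped, since sgSgf29 library 3 lay above both lower sgCtrl libraries, and the log2 fold change of −0.09 had a 95% interval of −0.23 to 0.05 (edgeR adjusted p = 0.24). The interval holds 0, and with library size alone the value turned to 0.14. The ratio of Dnmt1 to Dnmt3a counts was 12.1, 10.7 and 11.02 in sgCtrl and 7.42, 8.02 and 9.01 in sgSgf29, a log2 difference of −0.47 with an exact permutation p of 0.1.

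Most genes listed as partners of the DNA methyltransferases were lower. Of 8 partner genes, 6 were called lower and 0 higher by edgeR, where 34.4% of all genes were lower. None was higher by DESeq2 or at an unadjusted edgeR p under 0.05, and 1 was with library size alone. Their median log2 fold change was −0.48. Hells, a chromatin remodeller needed for methylation of packed DNA, went from 89.8 to 43.2 CPM (log2 fold change −1.05, SE 0.08), and Cdca7, which recruits it, from 181.8 to 99.3 CPM (−0.87, SE 0.07). Uhrf1, which brings Dnmt1 to half-methylated DNA behind the replication fork, went from 269.8 to 178.0 CPM (−0.60, SE 0.06). Zfp57 and Trim28, which guard imprinted methylation, fell by 0.49 and 0.48 on the log2 scale, and Usp7, a deubiquitinase of Dnmt1, fell by 0.18. Uhrf2 (−0.10) and Dnmt3l (0.10), a cofactor of the de novo enzymes, were not called. Of the 7 genes that make or recycle S-adenosylmethionine, the methyl donor, 5 were lower and 1 higher, among them Mtr (−0.86), Mtrr (−0.61) and Mat2a (−0.55, with 11.3% of its exon bases overlapping a gene on the other strand) lower and Ahcyl2 (0.57) higher. Of the 9 readers of methylated CpG tested, 6 were higher, where 35.4% of all genes were, including Mbd2 (0.71) and Zbtb38 (0.54), and Mbd3, a subunit of the NuRD complex, was lower (−0.69). The 6 higher readers became 3 without sgSgf29 library 2 or without sgSgf29 library 3, a share near that of all genes.

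Among the TET genes, Tet3 (chr6:83362373-83457208, minus strand) was at 47.1, 48.5 and 57.0 CPM in sgCtrl and at 64.8, 64.4 and 67.6 CPM in sgSgf29. All sgSgf29 libraries were higher, with a log2 fold change of 0.36 (SE 0.08, edgeR adjusted p = 0.00023). Tet2 (chr3:133463677-133545136, minus strand) was at 53.7, 58.0 and 43.5 CPM in sgCtrl and at 38.9, 45.9 and 42.1 CPM in sgSgf29. Its groups overlapped, because sgCtrl library 3 lay below sgSgf29 library 2. The log2 fold change of −0.28 (SE 0.09) was called at an edgeR adjusted p of 0.01, but the call was lost without sgCtrl library 2 (−0.20, edgeR adjusted p = 0.074), without sgSgf29 library 1 (−0.22, edgeR adjusted p = 0.086) and with library size alone (−0.051, edgeR adjusted p = 0.66). Tet1 (chr10:62804570-62887469, minus strand) had counts of 0, 0 and 0 in sgCtrl and 2, 0 and 1 in sgSgf29, so it was not detected in sgCtrl at this depth and no fold change is given.

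The ratio of Tet3 to Tet2 counts was 0.877, 0.836 and 1.31 in sgCtrl and 1.67, 1.40 and 1.61 in sgSgf29, a log2 difference of 0.66. The gap between the groups was narrow, since the highest sgCtrl library stood at 1.31 and the lowest sgSgf29 library at 1.40. The ratio of Tet2 to Dnmt3a, the enzymes that remove and place methylation and are both mutated in clonal blood disorders, was 2.85, 2.86 and 2.16 in sgCtrl and 1.49, 1.78 and 1.67 in sgSgf29, a log2 difference of −0.66. Both had an exact permutation p of 0.1. Per kb of exon, Tet2 made up 50.1% ± 6.14 of the summed Tet2 and Tet3 level in sgCtrl and 38.9% ± 2.16 in sgSgf29. Of 7 genes tested around TET activity, 2 were lower, 2 higher and 3 not called. Over all genes tested 34.4% were lower and 35.4% higher, so these counts are not by themselves a result about these genes. Idh2 was lower (log2 fold change −0.59), Idh1 was higher (0.73, from 66.0 to 109.9 CPM) and D2hgdh was higher (0.33). The isocitrate dehydrogenases Idh1 and Idh2 make 2-oxoglutarate, the cosubstrate of TET enzymes, in cytosol and mitochondria, and D2hgdh clears 2-hydroxyglutarate, which inhibits them. Tdg and Smug1, glycosylases of the removal step, were not called (0.08 and −0.06), nor was Ogt, the sugar transferase that TET proteins bind (−0.18). The 2 higher calls became 1 without sgSgf29 library 2.

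**Figure D3:**
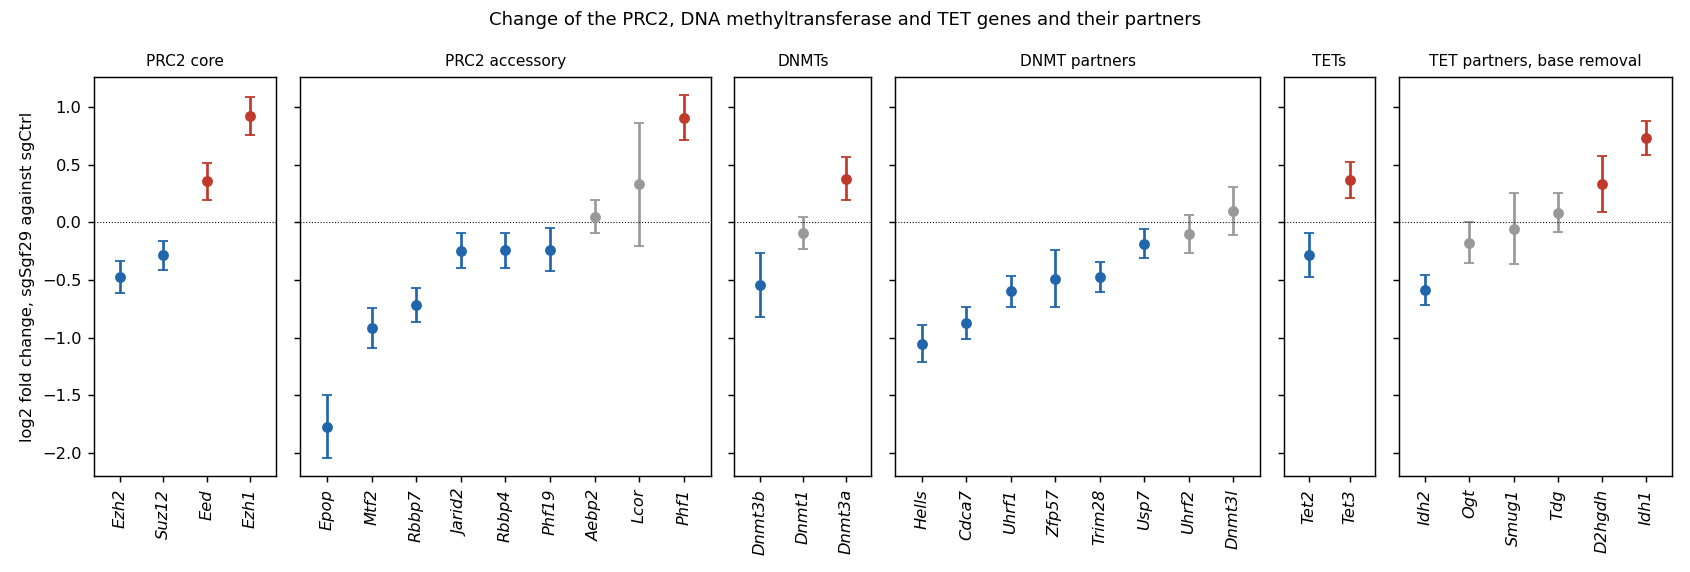
Log2 fold change, sgSgf29 against sgCtrl (y axis), of the genes of each system (x axis, sorted within panels), with 95% intervals from edgeR. Blue points were called lower, red higher and grey not called. The panel of TET partners shows 6 of the 7 genes tested. The core PRC2, de novo DNMT and TET panels each hold a gene above 0 and a gene below it, while the DNMT partners lie at or below 0.10.

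Levels between genes can be compared only per length, here as CPM per kb of the union of annotated exons. In sgCtrl, Dnmt1 (30.2 ± 0.816) and Suz12 (30.0 ± 0.723) were highest and did not differ beyond their spread. Ezh2 (14.99 ± 0.796) and Eed (9.46 ± 0.541) followed. Dnmt3b (3.14 ± 0.370), Tet2 (3.07 ± 0.442), Tet3 (3.05 ± 0.320) and Ezh1 (3.02 ± 0.114) formed a group whose members did not differ beyond their spread, and Dnmt3a (1.19 ± 0.046) was lower. In sgSgf29 the order of these levels was Dnmt1 (28.3 ± 2.24), Suz12 (24.6 ± 0.986), Eed (12.1 ± 0.790), Ezh2 (10.8 ± 0.514), Ezh1 (5.71 ± 0.198), Tet3 (3.93 ± 0.106), Tet2 (2.51 ± 0.207), Dnmt3b (2.14 ± 0.366) and Dnmt3a (1.54 ± 0.030). The ranges of Tet2 (2.31 to 2.72) and Dnmt3b (1.72 to 2.36) overlapped, although Tet2 was the higher within each sgSgf29 library. Ezh1 thus left the low group of 4 and Tet3 separated from Tet2. The order depends on the length used: with the longest coding transcript instead, chosen after seeing the data, Ezh2 stood above Suz12 in sgCtrl, Eed stayed below Ezh2 in both groups, and Ezh1 made up 12.95% and 28.1% of the Ezh1 and Ezh2 level. In sgSgf29 Dnmt3a then stood above Dnmt3b, and Tet2 made up 54.6% and 43.3% of the Tet2 and Tet3 level.

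**Figure D4:**
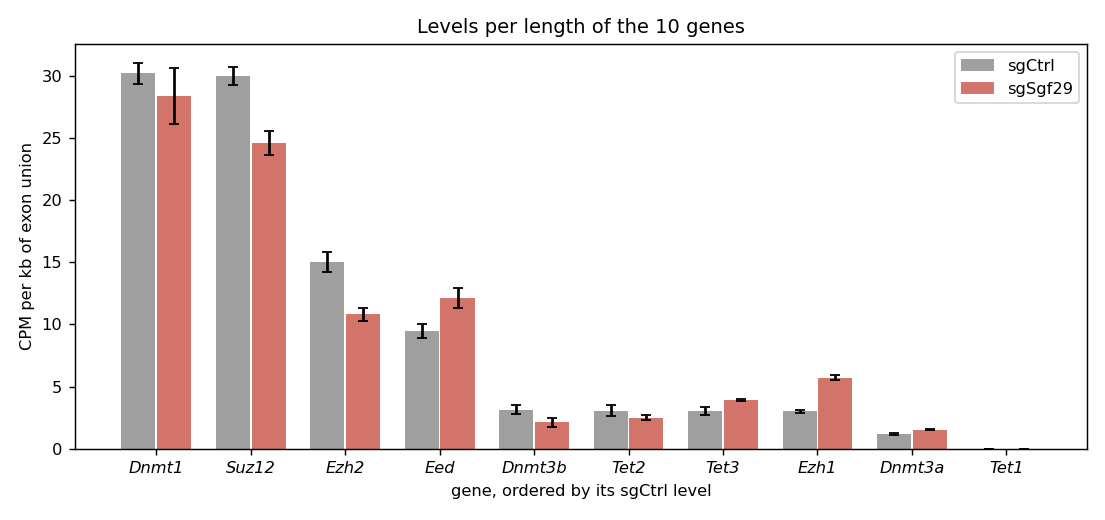
CPM per kb of exon union (y axis) of the 10 genes, ordered by their sgCtrl level (x axis). Bars are means and error bars SD of 3 libraries. Dnmt1 and Suz12 are highest in both groups, Ezh1 rises from 3.02 to 5.71, and Tet1 is at or next to 0.

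Over the 6 libraries, the gene of the pathway lists whose log2 CPM followed each changed gene most closely was Mbd2 for Ezh1 (Pearson r = 0.99) and for Dnmt3a (0.99), Cbx8 for Eed (0.97) and Tet3 (0.97), Mcm7 for Ezh2 (0.996), Rrm1 for Suz12 (0.997), Mcm2 for Dnmt3b (0.99) and Kdm2b for Tet2 (0.97), among 107 candidates. Such values describe 2 groups of 3 libraries that share their scaling, so genes that fell together correlate. Of the 25 genes tested from the replication list 22 were called lower, which makes a match from it likely for a gene that fell. The closest genes of Ezh2, Suz12 and Dnmt3b, replication helicase subunits and a ribonucleotide reductase subunit, came from the replication list, whose largest falls were Rrm2 (log2 fold change −1.52), Gins1 (−0.89), Cdt1 (−0.86) and Prim1 (−0.72) and whose only rise was E2f2 (0.73), with 2 rises without sgCtrl library 3, without sgSgf29 library 1 or with the replicate block. The second closest genes were the imprinted gene Peg10 for Ezh2 (0.994), and Tyms for Suz12 (0.997) and Mcm4 for Dnmt3b (0.97) from the replication list. A link to replication was not tested. The proliferation gene Mki67 (−0.10) and Pcna (0.16) were not called.

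Some of the exons overlap other genes, all on the opposite strand. The shared bases make up 6.82% of the exons of Eed, 3.6% of Suz12, 2.61% of Ezh2, 0.799% of Dnmt3a and 0.255% of Tet2, and no overlap was found for the other 5 genes. Dnmt3a also has an annotated pseudogene, Dnmt3a-ps1, with which its reads may be confused.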

How the data were processed

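Libraries of messenger RNA from 6 bulk samples were sequenced. The authors aligned the reads to mm10 with STAR (version 2.6.0a in the submitters' processing notes, which name GRCm38) and deposited raw counts per gene. The study names featureCounts, but the table holds 5 bookkeeping rows of the kind htseq-count writes (25.8% to 31.4% of each column), which were left out. Neither annotation nor strand setting is given in the sources used here. No column was left unused.

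Of 22155 genes, 11169 passed filterByExpr (minimum count 10, total 15). Counts were scaled by TMM and tested with edgeR 4.0.16 (R 4.3.3), calling genes at a Benjamini-Hochberg adjusted p under 0.05. SE is the log2 fold change over the square root of F, and CPM values are TMM-scaled. The biological coefficient of variation was 6.61%. Pairs of libraries within a group all differed beyond sampling noise, with a chi-square over its degrees of freedom of 4.48 to 15.4. The procedure was tested on simulated data. Alternatives were other scalings and filters, DESeq2 1.42.0, limma-voom (limma 3.58.1), leaving out each library and a replicate block. Coordinates and lengths are of GRCm38.

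The 10 genes and all lists were chosen with earlier results of these data known: the accessory subunits of PRC2, PRC1, PR-DUB, H3K27 demethylases, partners of the methyltransferases, methyl-CpG readers, TET partners, S-adenosylmethionine supply, developmental, germline and imprinted genes, DNA replication, and cell type markers. Named were Sgf29, the 10 genes, any gene of lists of up to 10, and up to 4 called genes in each direction, by adjusted p, of longer and marker lists. Marker genes named at 0 and genes named without a call were added after their values were seen. Some listed genes are not reported here.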

Additional observations from a re-analysis of the deposited data

How the results depend on the processing

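The calls of the 10 genes were the same under RLE and upper-quartile scaling, TMM factors without ribosomal protein genes, both other filters, DESeq2 and limma-voom. Library size alone moved them: the genes called lower went from 4 to 1 and those over the whole table from 3842 to 2385, or from 49.3% to 30.0% of the calls. Under it Suz12 was at −0.055 (edgeR adjusted p = 0.44), Dnmt3b at −0.31 (0.051), Tet2 at −0.051 (0.66) and Dnmt1, reversed, at 0.14 (0.067). It shifts every gene by a like amount by construction: relative to its median of 0.24, Suz12, Dnmt3b, Tet2 and Dnmt1 stood at −0.30, −0.55, −0.29 and −0.10. Without a library in turn, Tet2 ranged from −0.40 to −0.20, Dnmt3b from −0.63 to −0.41 and Ezh1 from 0.89 to 0.96, the genes called lower from 3 to 4, and the 7 ratios held their sign. Deviations of libraries with the same number correlated at 0.03, 0.08 and 0.12, and those with unlike numbers at −0.12 to 0.04. Only sgSgf29 library 1 did not correlate best with its own number (0.04 with sgCtrl library 2). The values lean toward pairing but are small, and the numbers were not taken to pair the samples in the main fit. With the replicate block 35.2% of genes tested were lower and 36.3% higher, Tet2 was at −0.28, and no call of the 10 genes changed. The paired sign-flip test of the ratios cannot give a p below 0.25. Depth limits Tet1, with 3 counts in all, and fold changes rest on 3 libraries a group.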

Other observations

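Lists of genes that these systems hold silent in other tissues were also counted. Of 25 developmental regulators under Polycomb silencing, 22 stayed below 1 CPM in every library, 15 of them at 0 throughout, and 3 were tested. Cdkn2a, a cell cycle inhibitor locus and classic Polycomb target, was lower, from 41.8 to 31.9 CPM (log2 fold change −0.39, SE 0.09, edgeR adjusted p = 0.00041), a call lost with library size alone. Cdkn2b was not called. All 14 germline genes silenced by promoter methylation were below 1 CPM in every library, with a summed level of 0.826 to 1.10 CPM in sgCtrl and 0.782 to 1.17 CPM in sgSgf29. Of 8 imprinted genes tested, 4 were lower and 2 higher, with a median log2 fold change of −0.11, against 34.4% and 35.4% of all genes tested. Cdkn1c went from 16.0 to 4.08 CPM (−1.97, SE 0.15) and Peg10 from 35.8 to 10.5 CPM (−1.78, SE 0.16), both larger changes than that of any of the 10 genes. Gnas (−0.45) and Impact (−0.35) were lower, and Zrsr1 (0.91) and Igf2r (0.51) higher. Exons of Cdkn1c (30.7%), Gnas (22%) and Zrsr1 (9.17%) overlap genes on the other strand, whose reads may be counted with them.

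Among marker lists of other cells, monocyte and macrophage genes summed to 1415 to 1607 CPM in sgCtrl and 1222 to 1265 CPM in sgSgf29, with 5 of 7 tested higher and Ly6c2, the most abundant, lower (log2 fold change −0.53). Of the 8 identity genes 4 were lower and 3 higher. Over all genes tested 34.4% were lower and 35.4% higher. Mast cell and basophil markers summed to 9.44 to 10.1 CPM in sgCtrl and 2.79 to 3.91 CPM in sgSgf29, with 1 tested, Mcpt8, which was lower. Of megakaryocyte markers 3 were tested, with 1 lower and 1 higher, of erythroid markers 2, with 1 higher, and of stromal and endothelial markers 1, Pecam1, which was higher. No B cell, T cell or NK cell marker had enough counts to be tested.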
